A study of Mus musculus with 27 samples.

Results

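The 10 integrin subunits described here are Itga1, Itga2, Itga3, Itga5, Itga6, Itga11, Itgav, Itgb1, Itgb3 and Itgb5, taken as a named list of genes without regard to their values. All 10 had a value in each of the 27 libraries, among 18892 genes with a value in every total RNA library, 21369 in every siRNA library and 21524 in every inhibitor library. RNA-seq was carried out on Setdb1 cKO iMEFs, a line of immortalized fibroblasts from mouse embryos in which the drug 4-hydroxytamoxifen (4OHT) deletes Setdb1, the gene of an H3K9 methyltransferase. The cells are a line that was recloned by serial dilution, and the untreated controls carry the conditional alleles too, so each result is that of 1 clone. In the total RNA experiment (rRNA depleted, 3 libraries a group), untreated cells were compared with cells at 4OHT day 5, given 4OHT for 4 days, and with long-term KO cells, grown for more than 2 weeks after 4OHT per the labels. In the siRNA experiment (2 libraries a group), cells received control siRNA (siCtrl) or siRNA against the DNA methyltransferase Dnmt1 (siDnmt1), without 4OHT or with 4OHT, and the 4OHT cells were taken at day 6. In the inhibitor experiment (2 libraries a group), the groups were untreated, 4OHT day 6, PD0325901 (1 µM, a MEK inhibitor, last 24 h), 4OHT + PD0325901, and TSA (150 nM for 24 h, trichostatin A, a histone deacetylase inhibitor). Nothing states that replicates are separate cultures, so p-values measure only the spread between these samples, which may be technical.

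Integrins are receptors of the cell surface that bind the extracellular matrix outside the cell and, through talin, kindlin and other adaptors, the actin cytoskeleton inside it. Each receptor is a dimer of an alpha and a beta subunit, and the alpha subunit largely sets the ligand. Itga1, Itga2 and Itga11 pair with Itgb1 to bind collagens, Itga3 and Itga6 pair with Itgb1 to bind laminins, and Itga5 pairs with Itgb1 to bind fibronectin. Itgav pairs with Itgb1, Itgb3 or Itgb5 to bind vitronectin, fibronectin and other ligands that carry the RGD tripeptide. Fibroblasts use these receptors to hold, pull on and remodel their matrix.

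The depth implied by the deposited values was 36.4 to 41.9 M fragments in the total RNA libraries, 13.8 to 15.8 M in the siRNA libraries and 11.0 to 12.8 M in the inhibitor libraries. Between replicates the median absolute log2 difference over genes was at most 0.0937 in total RNA, and it was highest, at 0.321, between the 4OHT + siCtrl libraries. Dnmt1 FPKM was 80.5 and 73.4 with siCtrl and 12.2 and 10.6 with siDnmt1. Setdb1 FPKM covers the whole gene, and the deleted part is not given in the sources used here, so it does not check the deletion: it was 5.16 to 5.95 in untreated, 4.16 to 6.52 at day 5 and 6.96 to 7.32 in long-term KO cells, and it was listed at 0 in 3 of the 4 inhibitor libraries that received 4OHT. Fibroblast markers reached 1 FPKM in every group, at a summed 1185 to 3845 FPKM per library. In these bulk samples, fewer cells of a type and less RNA per cell cannot be told apart. The title line inside the file of PD0325901 replicate 2 names another group, so the subunits called with that library are given with and without it.

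Itgb1, the beta subunit shared by most of these receptors, had the highest level of the 10 in all 12 groups, and its library values ran from 160.2 to 423 FPKM (fragments per kilobase of transcript, scaled to the mapped fragments of the library). It made up 57.0 to 72.5% of the summed FPKM of the 10 subunits, lowest in TSA and highest in PD0325901. In untreated total RNA the mean levels were 185 ± 12.2 FPKM for Itgb1, 36.4 ± 0.933 for Itgav, 22.2 ± 1.19 for Itga6, 22.0 ± 0.708 for Itgb5, 12.1 ± 0.564 for Itga3 and 9.92 ± 0.715 for Itga5 (SD, n = 3 each). Itga6 and Itgb5 were neighbours in this order whose library values overlapped, and the other neighbours among these 6 did not. Far lower came Itga11 with 0.385 ± 0.0759, Itga1 with 0.181 ± 0.0106 and Itgb3 with 0.101 ± 0.0234 FPKM (SD, n = 3), and Itga2 was listed at 0 in 2 of the 3 libraries. Untreated iMEFs of the total RNA experiment thus had measurable RNA for laminin, fibronectin and RGD receptors, and little for the collagen receptors. The summed FPKM of Itga1, Itga2 and Itga11 was 0.516 to 0.664 there. It was 1.28 to 1.50 in the untreated inhibitor libraries and 4.44 in both siCtrl libraries. In the inhibitor experiment Itga5 overlapped both Itgav and Itga6 in the untreated libraries, in TSA Itga6 moved up behind Itgb1, and in PD0325901 Itga5 came behind Itgb1. The plot of levels by library shows each value.

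**Figure D1:**
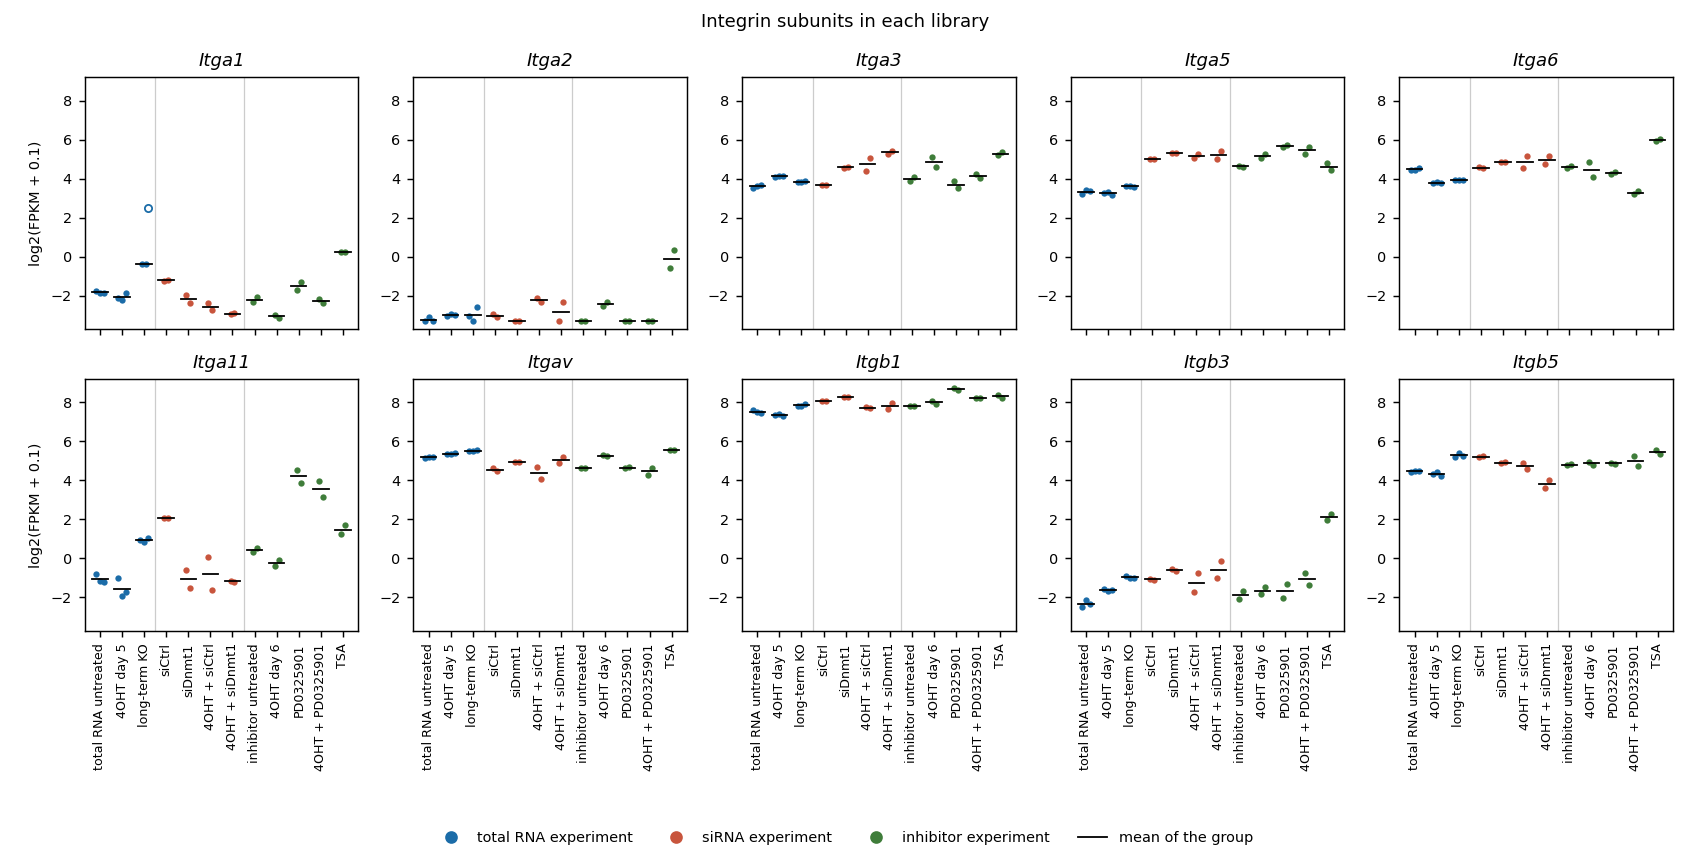
Level of each of the 10 subunits in every library as log2(FPKM + 0.1) (y axis), 1 panel a subunit, with the 12 groups along the x axis; each point is a library and the black line is the group mean. The open circle is the Itga1 value of long-term KO replicate 3, which comes from a row joined with another gene and is left out of the mean. Itgb1 lies highest throughout, and Itga11 stands out with PD0325901, Itga1 and Itgb3 with TSA.

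A gene was tested where it reached 1 FPKM in at least 3 libraries of the total RNA experiment or 2 of another experiment, with limma on log2(FPKM + 0.1) and Benjamini-Hochberg adjustment over all genes tested, and rose or fell means an adjusted p under 0.05. In total RNA, 7 of the 10 subunits were tested among 8380 genes, in siRNA 7 among 10572 and in inhibitor libraries 9 among 11309. Itga11 passed this filter only through long-term KO in total RNA and only through siCtrl in the siRNA experiment, and Itga1 and Itgb3 passed only through TSA, so that they had to differ in these groups. No test is therefore read from a comparison of these groups for them. An adjusted p from a fit with no such filter, over all genes with any value above 0, is given instead. Each count from a comparison of these groups is given without them too. In the other comparisons and the interactions, the same numbers rose and fell without them. There 6 subunits were left in total RNA and siRNA libraries and 7 in inhibitor libraries. Itga2 was tested nowhere. Fold changes on this scale understate those of the low subunits.

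At 4OHT day 5, 2 of 7 subunits rose and 1 fell against untreated, where 19.2% of all tested genes were called higher and 18.5% lower. Against untreated, 6 of 7 rose and 1 fell in long-term KO cells, against a background of 38.3% higher and 30.2% lower, and from day 5 to long-term KO 6 rose and 1 fell, against 36.3% and 30.8%. Without Itga11, 5 of 6 rose and 1 fell in each of these last comparisons. With siDnmt1, no subunit rose and 1 fell, where 3.11% of genes were called higher and 4.97% lower, and without Itga11 none of 6 was called by limma. In 4OHT + siCtrl against siCtrl, 1 rose and 1 fell (background 7.26% and 6.51%), and without Itga11 1 of 6 rose and none fell. In 4OHT + siDnmt1, no subunit was called by limma against 4OHT + siCtrl, with 3 at an unadjusted p under 0.05 (background 1.14% and 0.927%), and against siDnmt1 none rose and 2 fell (background 9.23% and 4.63%). At 4OHT day 6, 3 of 9 rose and none fell against untreated, where 12.3% of genes were called higher and 12.7% lower.

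With PD0325901, 3 of 9 rose and none fell against untreated (background 5.93% and 7.77%). In 4OHT + PD0325901, 1 rose and 2 fell against 4OHT day 6 (background 4.31% and 2.64%), and none rose and 2 fell against PD0325901 (background 5.52% and 2.64%). With TSA, 8 of 9 rose and none fell against untreated, where 31.5% of genes were called higher and 24.3% lower, and without Itga1 and Itgb3 6 of 7 rose. Of these 6, Itga11 read 2.26 and 3.22 FPKM against 1.18 and 1.37, and rose by 1.03 ± 0.345 (SE, adjusted p = 0.0349, limma). It was not called with pseudocount 1 (adjusted p = 0.0712, limma) or quantile normalization (adjusted p = 0.254, limma). With 1 library left out its value was 0.78 to 1.28, and the call was lost whichever library that was. Whether the 4OHT effect differed with siDnmt1 was tested as an interaction, which called none of 7 subunits (background 0.199%, 2 at an unadjusted p under 0.05), and the interaction with PD0325901 called none of 9 (background 0.743%, 4 at an unadjusted p under 0.05). The median log2 fold change of the tested subunits was 1.03 with TSA (0.94 without Itga1 and Itgb3) against 0.10 for all genes, 0.32 in long-term KO (0.30 without Itga11) against 0.07, and between -0.42 and 0.36 in the other comparisons and interactions. Without the subunits that passed the filter only through 1 group, these other medians ran from -0.64 to 0.29. The 4OHT day 6, PD0325901 and TSA comparisons share their untreated libraries, as do comparisons within the other experiments. The heat map gives all tested values.

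**Figure D2:**
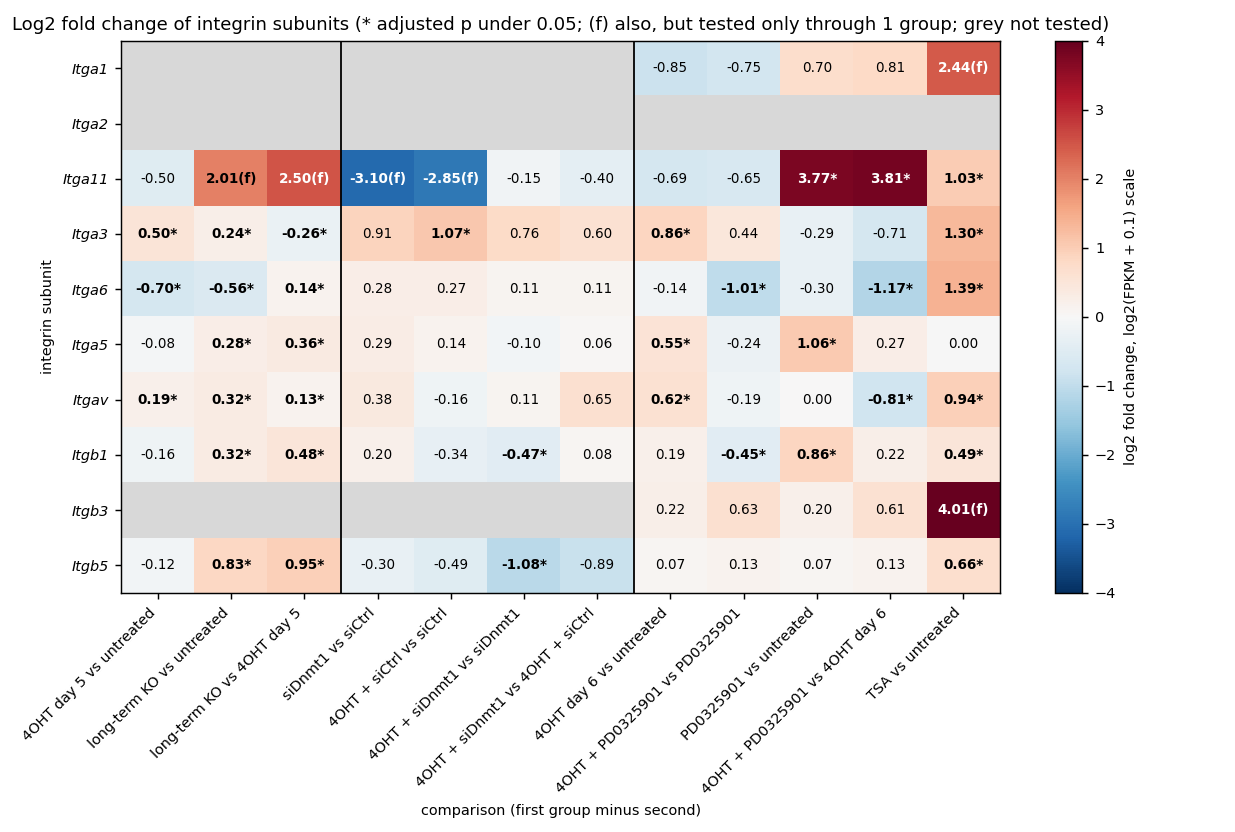
Log2 fold change of the 10 subunits (rows) in 12 comparisons (columns), from the limma fit on log2(FPKM + 0.1), with colour from lower to higher; an asterisk marks an adjusted p under 0.05, (f) the same for a subunit that was tested only through 1 of the groups compared, and grey means not tested. The TSA column holds 6 asterisks, and Itga11 is 3.77 with PD0325901 and 3.81 in 4OHT + PD0325901 against 4OHT day 6.

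Itga11, the alpha subunit of the collagen receptor of fibroblasts, ranged from 0.161 to 23.4 FPKM over the libraries. In mm9 the gene lies on the plus strand of chr9:62525662-62631786. With PD0325901 it read 23.4 and 14.7 FPKM, where untreated libraries read 1.18 and 1.37. Itga11 was thus above 10 FPKM in both PD0325901 libraries and below 2 in both controls, and it rose by 3.77 ± 0.345 on the log2 scale (SE; adjusted p = 7.68e-04, limma). In 4OHT + PD0325901 it read 15.6 and 8.95 FPKM, where 4OHT day 6 read 0.659 and 0.843, and it rose there by 3.81 ± 0.345 (adjusted p = 0.00138, limma). The deposited interval of the value 15.6 ran from 3.28 to 27.8 FPKM. The rise with PD0325901 therefore appeared at a similar size with and without 4OHT, and the test of the difference gave 0.05 ± 0.487 (adjusted p = 0.986, limma). Without PD0325901 replicate 2, the log2 fold change against untreated was 4.10 (adjusted p = 0.00302, limma).

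In long-term KO cells Itga11 read 1.81, 1.73 and 1.96 FPKM, where untreated total RNA read 0.472, 0.346 and 0.336 and day 5 read 0.404, 0.161 and 0.202. Every long-term KO library was above all others of that experiment, by a fitted 2.01 ± 0.249 against untreated and 2.50 ± 0.249 against day 5 (SE). With no filter on low values these had adjusted p = 2.47e-04 and 7.52e-05 (limma). Untreated and day 5 libraries overlapped, and the value of -0.50 between them was not called (adjusted p = 0.161, limma). Without day 5 replicate 1 it was -0.78 (adjusted p = 0.0143, limma), and under quantile normalization -1.03 (adjusted p = 0.0261, limma). In the siRNA experiment siCtrl cells read 4.08 and 4.09 FPKM, and the other 3 groups were lower, with 0.575 and 0.254 in siDnmt1, 0.955 and 0.222 in 4OHT + siCtrl, and 0.355 and 0.329 in 4OHT + siDnmt1. Both siCtrl libraries thus lay above the other 6, and the fitted values were -3.10 with siDnmt1 and -2.85 with 4OHT + siCtrl (SE 0.610 each). With no filter they had adjusted p of 0.0424 and 0.0467 (limma), both close to the threshold. The interaction was 2.70 with adjusted p = 0.393. With 1 library left out, the value was -3.56 to -2.63 with siDnmt1 and -1.99 or lower with 4OHT + siCtrl. In these filtered fits the siDnmt1 value stayed below the threshold whichever library was left out. The 4OHT + siCtrl value did not pass without either siCtrl library. In a filtered fit of only the groups compared, the value with 4OHT + siCtrl was not called (adjusted p = 0.115, limma). Itga11 passes that filter only through siCtrl, so no call from such a fit is read for siDnmt1.

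Itga1, the alpha subunit of another collagen receptor, was below 0.7 FPKM in every library but those of TSA and a joined row. In mm9 it lies on the minus strand of chr13:115748289-115892172, and Pelo, a gene of ribosome rescue, sits inside it. With TSA Itga1 read 1.08 and 1.07 FPKM, where untreated libraries read 0.0979 and 0.135. Both TSA libraries were well above both controls, by a fitted 2.44 ± 0.266 on the log2 scale (SE), which had adjusted p = 1.82e-04 with no filter (limma). Under quantile normalization the fitted value was 0.45. With PD0325901 it read 0.201 and 0.307, at 4OHT day 6 0.0245 and 0.0141, and in 4OHT + PD0325901 0.123 and 0.0950 FPKM, none of which was called; with no filter, 4OHT day 6 was at -0.85 against untreated with adjusted p = 0.0424 (limma). Long-term KO replicates 1 and 2 read 0.656 and 0.662 FPKM, where untreated total RNA read 0.192, 0.171 and 0.179 and day 5 read 0.132, 0.111 and 0.175. Long-term KO replicate 3 read 5.49 FPKM, but there the row spanned Itga1 and Pelo together, and Pelo, at 4.29 to 6.23 FPKM in the other 8 libraries, had no row of its own. Itga1 was not tested in total RNA or siRNA libraries, where siCtrl read 0.327 and 0.339 and each library of the other siRNA groups read 0.154 or lower.

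Itga2, the alpha subunit of the collagen receptor of platelets and epithelia, lies beside Itga1 on the minus strand of chr13:115626120-115722249 (mm9). It was listed at 0 in 12 of 27 libraries, and the highest values were 0.559 and 1.16 FPKM with TSA, where both untreated libraries were listed at 0. No fold is given for it. Values above 0.05 FPKM were otherwise seen in 4OHT + siCtrl (0.128 and 0.102), in 4OHT + siDnmt1 (0 and 0.0969), at 4OHT day 6 (0.0707 and 0.102) and in long-term KO replicate 3 (0.0679). The summed level of the collagen-binding alpha subunits was 15.0 to 23.6 FPKM with PD0325901, 9.04 to 15.7 in 4OHT + PD0325901 and 3.89 to 5.44 with TSA, where untreated libraries read 1.28 to 1.50 and 4OHT day 6 0.755 to 0.959. In total RNA that sum was 0.516 to 0.664 in untreated, 0.302 to 0.560 at day 5 and 2.39 to 2.49 in long-term KO replicates 1 and 2.

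Since Itga11, Itga5 and Itgb1 were the 3 subunits that rose with PD0325901, their promoters are shown, from 250 bases before to 50 bases after the gene's start, from RefSeq on GRCm38.p6. Capitals mark matches on either strand to the AP-1 motif TGANTCA, the Ets core CCGGAA and the GC box GGGCGG, families whose factors include known targets of the MEK pathway (AP-1 and Ets) and a general activator (GC box). The windows are chr9:62677605-62677904 on the plus strand for Itga11, chr15:103366742-103367041 on the minus strand for Itga5 and chr8:128685404-128685703 on the plus strand for Itgb1.
Itga11: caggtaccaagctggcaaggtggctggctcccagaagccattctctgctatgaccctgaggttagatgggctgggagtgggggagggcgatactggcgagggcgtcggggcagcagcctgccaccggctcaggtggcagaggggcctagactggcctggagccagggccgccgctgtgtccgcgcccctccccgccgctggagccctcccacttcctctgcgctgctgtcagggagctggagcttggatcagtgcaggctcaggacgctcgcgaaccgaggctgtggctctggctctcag
Itga5: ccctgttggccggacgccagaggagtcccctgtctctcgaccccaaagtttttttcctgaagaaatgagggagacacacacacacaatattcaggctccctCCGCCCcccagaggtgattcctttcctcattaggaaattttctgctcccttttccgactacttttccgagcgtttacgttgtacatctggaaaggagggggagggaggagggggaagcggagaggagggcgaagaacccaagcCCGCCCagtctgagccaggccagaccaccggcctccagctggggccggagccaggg
Itgb1: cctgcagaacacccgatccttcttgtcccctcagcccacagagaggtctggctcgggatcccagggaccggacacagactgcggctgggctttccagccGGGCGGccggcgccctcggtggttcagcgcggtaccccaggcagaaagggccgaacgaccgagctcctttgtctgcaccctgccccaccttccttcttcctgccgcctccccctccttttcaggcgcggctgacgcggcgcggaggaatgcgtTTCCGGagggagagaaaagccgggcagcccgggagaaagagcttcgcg
The Itga11 window held none of these motifs and 16 CpG, the Itga5 window 2 GC boxes and 13 CpG, and the Itgb1 window 1 GC box, 1 Ets core and 27 CpG, where the median of all 32851 promoters is 7 CpG. Of all promoters of this length, 7.81% held the AP-1 motif, 14.9% the Ets core and 35.7% the GC box. No matches overlapped each other. A match is a description of letters and not a site. Promoters were found for 8 of the 10 subunits.

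Itga3 and Itga6, the alpha subunits of the laminin receptors, diverged after 4OHT. Itga3 (minus strand of chr11:94905789-94938125, mm9) read 16.7, 17.5 and 17.4 FPKM at day 5, where untreated libraries read 11.5, 12.2 and 12.6. All 3 day 5 libraries were above all 3 controls, and Itga3 rose by 0.50 ± 0.043 on the log2 scale (adjusted p = 9.32e-05, limma). Itga6 (plus strand of chr2:71624996-71696484, mm9) read 13.4, 14.0 and 13.6 FPKM at day 5, where untreated libraries read 21.5, 21.6 and 23.6. It fell by 0.70 on the log2 scale without overlap (SE 0.041, adjusted p = 1.24e-05, limma). In long-term KO cells Itga3 read 14.0, 14.2 and 14.8 FPKM, between the other groups, and was 0.24 ± 0.043 above untreated (adjusted p = 0.00149, limma) and fell by 0.26 from day 5 (adjusted p = 8.78e-04, limma). Itga6 read 14.9, 15.1 and 15.0 FPKM and fell by 0.56 from untreated (SE 0.041, adjusted p = 8.38e-06, limma). The difference of 0.14 between long-term KO and day 5 was called (adjusted p = 0.0200, limma), but not without day 5 replicate 1 or 3 or long-term KO replicate 2 or 3 (adjusted p 0.0505 to 0.0611), under median-ratio scaling (0.09, adjusted p = 0.143) or under quantile normalization (adjusted p = 0.0632).

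At 4OHT day 6 of the inhibitor experiment Itga3 read 34.0 and 24.3 FPKM, where untreated libraries read 14.5 and 17.1. It rose by 0.86 ± 0.195 on the log2 scale (adjusted p = 0.0179, limma). The call was lost without either untreated library or without 4OHT day 6 replicate 1 (adjusted p 0.0644 to 0.114). Itga6 read 28.4 and 16.9 FPKM there and 23.4 and 24.8 in untreated libraries, so the groups overlapped and the value of -0.14 was not called (adjusted p = 0.689, limma); without 4OHT day 6 replicate 1 it was -0.51 (adjusted p = 0.0412). In 4OHT + siCtrl Itga3 read 21.1 and 33.6 FPKM against 12.7 and 12.6 in siCtrl, and rose by 1.07 ± 0.212 (adjusted p = 0.0264, limma). Without siCtrl replicate 1 or 2 this call was lost, with adjusted p of 0.135 and 0.160. Itga6 read 22.9 and 35.6 FPKM against 24.3 and 23.0, and was not called.

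With siDnmt1 alone Itga3 read 23.6 and 24.0 FPKM, a difference of 0.91 ± 0.212 from siCtrl that missed the threshold (adjusted p = 0.0547, limma), and the deposited interval of the value 23.6 ran from 0 to 11697 FPKM. The highest Itga3 values of the siRNA experiment were the 38.1 and 43.0 FPKM of 4OHT + siDnmt1, which differed by 0.60 ± 0.212 from 4OHT + siCtrl (adjusted p = 0.197, limma; 0.94 with adjusted p = 0.0148 without 4OHT + siCtrl replicate 2). Against siDnmt1 the difference was 0.76 ± 0.212 (adjusted p = 0.0615, limma). Itga6 read 28.9 and 28.4 FPKM with siDnmt1 and 26.8 and 35.5 in 4OHT + siDnmt1, with no call. With PD0325901 Itga3 read 14.5 and 11.4 and Itga6 18.9 and 20.1 FPKM, with no call for either against untreated. In 4OHT + PD0325901 Itga6 read 9.21 and 10.1 FPKM, the lowest values of its experiment. It fell by 1.17 from 4OHT day 6 (SE 0.214, adjusted p = 0.0208, limma) and fell by 1.01 from PD0325901 (SE 0.214, adjusted p = 0.0310, limma). Without 4OHT + PD0325901 replicate 1 or 2 the first of these calls was lost (adjusted p = 0.103 and 0.0557). Each of the 4 libraries of the other comparison was needed for its call (adjusted p 0.0742 to 0.135). Itga3 read 18.9 and 16.3 FPKM in 4OHT + PD0325901 and was not called.

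With TSA both laminin-binding subunits rose. Itga3 read 36.9 and 41.1 FPKM, above both untreated libraries, and rose by 1.30 ± 0.195 on the log2 scale (adjusted p = 9.32e-04, limma). Itga6 read 61.2 and 65.4 FPKM and rose by 1.39 ± 0.214 (adjusted p = 0.00105, limma). The ratio of Itga3 to Itga6 within a library does not depend on the scaling of libraries. It was 0.535 to 0.568 in untreated total RNA, 1.24 to 1.29 at day 5 and 0.940 to 0.982 in long-term KO cells. In the siRNA experiment it was 0.523 to 0.547 with siCtrl, 0.815 to 0.845 with siDnmt1, 0.921 to 0.942 in 4OHT + siCtrl and 1.21 to 1.42 in 4OHT + siDnmt1. In the inhibitor experiment it was 0.621 to 0.689 in untreated, 1.20 to 1.44 at 4OHT day 6, 0.570 to 0.766 with PD0325901, 1.61 to 2.05 in 4OHT + PD0325901 and 0.602 to 0.629 with TSA. In each of these pairs the ratio was higher with 4OHT than without it, with no overlap of libraries. This ratio was chosen after its values were seen and was not tested.

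**Figure D3:**
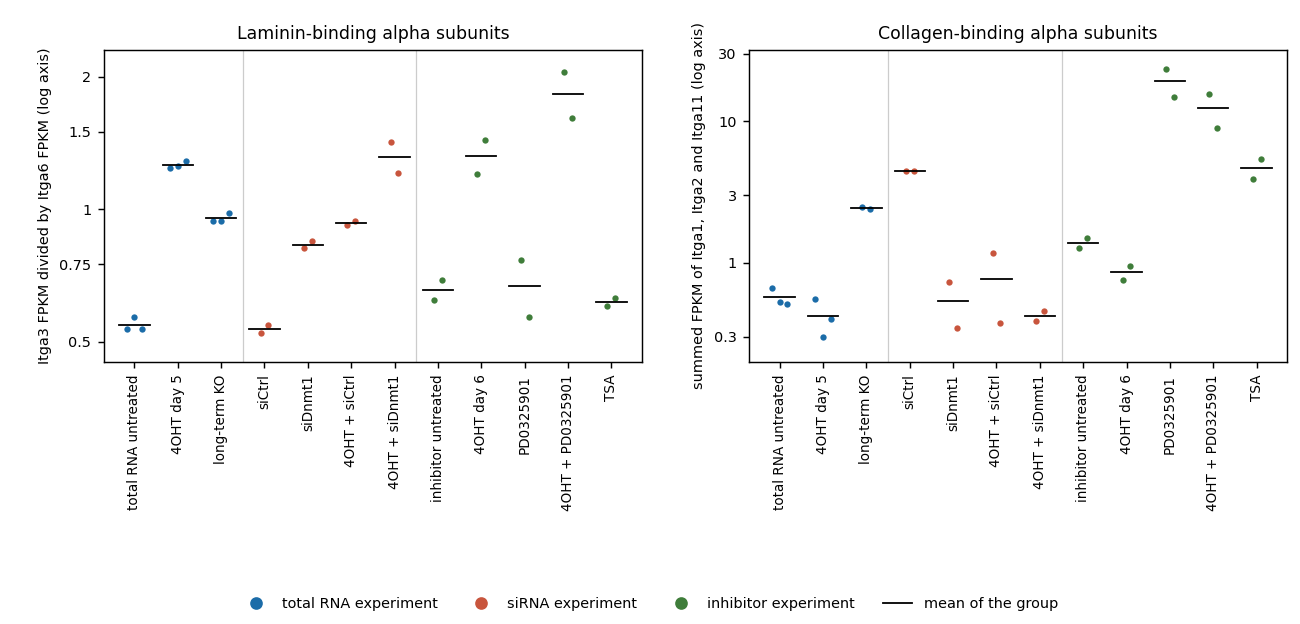
Left, ratio of Itga3 FPKM to Itga6 FPKM in every library (y axis, log scale) by group (x axis); right, summed FPKM of Itga1, Itga2 and Itga11 (y axis, log scale), without long-term KO replicate 3. Each point is a library and each black line a group mean. The ratio lies between 0.523 and 0.845 in groups without 4OHT and above 0.9 in groups that received it, and the sum is highest with PD0325901, with or without 4OHT.

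Itga5, the alpha subunit of the main fibronectin receptor, lies on the minus strand of chr15:103174718-103197222 (mm9). With PD0325901 it read 49.1 and 53.6 FPKM, where untreated libraries read 24.9 and 24.2. Both PD0325901 libraries were above both controls, and Itga5 rose by 1.06 ± 0.155 on the log2 scale (adjusted p = 0.00559, limma). The adjusted p was 0.0532 without untreated replicate 2, and without PD0325901 replicate 2 the value was 1.00 (adjusted p = 0.0278). At 4OHT day 6 it read 33.8 and 38.3 FPKM and rose by 0.55 ± 0.155 (adjusted p = 0.0384, limma), a call that was lost when any 1 of the 4 libraries was left out (adjusted p 0.0717 to 0.167). In 4OHT + PD0325901 it read 38.6 and 48.8 FPKM, 0.27 ± 0.155 from 4OHT day 6 (adjusted p = 0.347, limma), and the interaction of -0.79 ± 0.219 was not called (adjusted p = 0.157). In long-term KO cells Itga5 read 12.1, 12.1 and 11.8 FPKM, where untreated total RNA read 9.10, 10.5 and 10.2 and day 5 read 9.43, 9.82 and 8.89. It rose by 0.28 ± 0.059 against untreated (adjusted p = 0.00356, limma) and by 0.36 ± 0.059 against day 5 (adjusted p = 9.83e-04, limma). With TSA it read 27.6 and 21.8 FPKM, on either side of the controls, and Itga5 was the 1 of 9 tested subunits that was not called with TSA (0.00 ± 0.155, adjusted p = 0.989, limma). In the siRNA experiment it stayed between 32.1 and 42.1 FPKM, with no call.

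Itgav, the alpha subunit shared by the RGD receptors of vitronectin, lies on the plus strand of chr2:83564554-83647074 (mm9) and overlaps 2 short genes of the opposite strand. It read 40.9, 41.0 and 43.0 FPKM at day 5 and 44.9, 45.2 and 46.4 in long-term KO cells, where untreated libraries read 35.3, 36.8 and 37.0. The 3 groups did not overlap, and Itgav rose by 0.19 ± 0.033 at day 5 (adjusted p = 0.00296, limma) and by 0.32 ± 0.033 in long-term KO cells (adjusted p = 5.82e-05, limma). The difference of 0.13 between long-term KO and day 5 was called (adjusted p = 0.00926, limma), but not under median-ratio scaling (adjusted p = 0.109) or quantile normalization (adjusted p = 0.0713). At 4OHT day 6 Itgav read 39.3 and 37.5 FPKM, where untreated libraries read 24.9 and 25.0, and it rose by 0.62 ± 0.123 (adjusted p = 0.0114, limma). Without either untreated library or without 4OHT day 6 replicate 1 the adjusted p was 0.0525 to 0.0747. In 4OHT + PD0325901 it read 19.3 and 24.9 FPKM, next to the 24.6 and 25.3 of PD0325901 alone, and it fell by 0.81 from 4OHT day 6 (SE 0.123, adjusted p = 0.0109, limma; 0.0594 without 4OHT day 6 replicate 1). The interaction for Itgav, -0.81 ± 0.175, had the lowest adjusted p of the tested subunits, at 0.0996 (limma), and it was -0.99 with 0.0252 without 4OHT + PD0325901 replicate 2. With TSA Itgav read 47.9 and 47.8 FPKM and rose by 0.94 ± 0.123 (adjusted p = 4.93e-04, limma). In siRNA libraries it read 24.5 and 21.9 with siCtrl, 30.3 and 30.2 with siDnmt1, 25.7 and 16.7 in 4OHT + siCtrl and 29.3 and 36.2 in 4OHT + siDnmt1, with no call. Without 4OHT + siCtrl replicate 1 the 4OHT groups differed by 0.96 (adjusted p = 0.0142).

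Itgb3, the beta subunit of the classic vitronectin receptor, lies on the plus strand of chr11:104469314-104531785 (mm9). With TSA it read 3.80 and 4.85 FPKM, where untreated libraries read 0.139 and 0.209. Both TSA libraries were far above both controls, by a fitted 4.01 ± 0.362 on the log2 scale (SE), with adjusted p = 2.06e-04 where no filter was used (limma). The deposited interval of the value 3.80 ran from 0.736 to 6.87 FPKM. In total RNA, where it was too low to be tested, it read 0.0811, 0.127 and 0.0950 in untreated, 0.237, 0.214 and 0.225 at day 5 and 0.437, 0.400 and 0.400 in long-term KO cells. These 3 groups did not overlap, and all were below 0.5 FPKM. The remaining groups read 0.143 to 0.802 FPKM, and Itgb3 was not called with PD0325901 or 4OHT in the inhibitor experiment.

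Itgb5, the other beta partner of Itgav, lies on the plus strand of chr16:33829751-33949424 (mm9). It read 37.2, 41.9 and 38.3 FPKM in long-term KO cells, where untreated libraries read 21.3, 22.1 and 22.7 and day 5 read 19.9, 21.9 and 19.0. Long-term KO stood clear of both other groups, with a rise of 0.83 ± 0.064 against untreated (adjusted p = 1.14e-05, limma) and of 0.95 ± 0.064 against day 5 (adjusted p = 5.83e-06, limma). In 4OHT + siDnmt1 it read 12.3 and 16.5 FPKM, the lowest values of Itgb5 in any library, where siDnmt1 read 29.7 and 30.5, 4OHT + siCtrl 29.5 and 23.8, and siCtrl 36.2 and 38.1. It fell by 1.08 against siDnmt1 (SE 0.169, adjusted p = 0.0192, limma), and the call was lost without either siDnmt1 library or without 4OHT + siDnmt1 replicate 1 (adjusted p 0.0619 to 0.147). All genes had a median of 0.14 in that comparison. Against 4OHT + siCtrl the value was -0.89 ± 0.169 (adjusted p = 0.0628, limma), and it passed the threshold without 4OHT + siCtrl replicate 1 (adjusted p = 0.0414) or 2 (0.0424) or without 4OHT + siDnmt1 replicate 2 (0.0459). With TSA it read 47.4 and 41.1 FPKM, where untreated libraries read 27.7 and 28.2, and it rose by 0.66 ± 0.168 (adjusted p = 0.0117, limma), but not without either untreated library or TSA replicate 1 (adjusted p 0.0509 to 0.0782). With PD0325901, 4OHT day 6 and both together it read 26.8 to 38.2 FPKM and was not called.

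Itgb1, the common partner, lies on the plus strand of chr8:131209554-131257479 (mm9). With PD0325901 it read 423 and 399.8 FPKM, where untreated libraries read 229.5 and 223. It rose by 0.86 ± 0.105 on the log2 scale (adjusted p = 0.00273, limma), and by 0.90 without PD0325901 replicate 2 (adjusted p = 0.0111). With 4OHT + PD0325901 it read 304 and 299 FPKM, which fell by 0.45 from PD0325901 (SE 0.105, adjusted p = 0.0413, limma), a call lost when any 1 of the 4 libraries was left out (adjusted p 0.0941 to 0.117). 4OHT day 6 read 272 and 246 FPKM, with no call against untreated. In long-term KO cells Itgb1 read 224, 222 and 245 FPKM, where untreated libraries read 199, 181 and 175 and day 5 read 166, 169 and 160.2. It rose by 0.32 ± 0.058 against untreated (adjusted p = 0.00159, limma) and by 0.48 ± 0.058 against day 5 (adjusted p = 1.58e-04, limma). The value of -0.16 at day 5 was not called (adjusted p = 0.0592, limma; 0.0444 without untreated replicate 3 and 0.0424 under median-ratio scaling). With TSA it read 337 and 301 FPKM and rose by 0.49 ± 0.105 (adjusted p = 0.00493, limma). In the siRNA experiment it read 269.5 and 270.3 FPKM with siCtrl, 315 and 307 with siDnmt1, 217 and 209.5 in 4OHT + siCtrl, and 202 and 251 in 4OHT + siDnmt1. The 4OHT libraries were below those without 4OHT, and Itgb1 fell by 0.47 between the siDnmt1 groups (SE 0.114, adjusted p = 0.0464, limma). That call was lost without either siDnmt1 library or 4OHT + siDnmt1 replicate 1 (adjusted p 0.123 to 0.219) and with replicate number as a block (adjusted p = 0.0682).

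Other changes of the TSA cells stand beside these rises. Summed haematopoietic markers were 60.6 to 67.1 FPKM in the TSA libraries and at most 14.2 in the rest, of which Cd68 made up 66.9 and 60.5 FPKM, while Cd3e was at 0 throughout. Summed epithelial markers were 33.7 to 40.3 FPKM in TSA and 0.298 to 2.66 in the rest, and Epcam read 28.1 and 29.2 FPKM where untreated libraries read 0.839 and 1.09. Cdh1, the epithelial cadherin, read 2.60 and 2.49 FPKM against 0.268 and 0.203, and the platelet gene Pf4 was at 0 in every group. Of the endothelial markers, Kdr read 1.71 and 1.88 FPKM against 0.0539 and 0.0445. Pecam1 read 0.261 and 0.285 FPKM against 0.0751 and 0.128, and Cdh5 was at 0 in both TSA libraries. Kdr was not particular to TSA: it read 0.512 and 0.493 FPKM with PD0325901, 0.528 and 0.808 at 4OHT day 6 and 1.43 and 1.33 in 4OHT + PD0325901. The epithelial keratin Krt5 read 0.0365 FPKM in both TSA libraries, and the haematopoietic marker Ptprc read 0.0873 and 0.131. Of 5 tested fibroblast markers 2 rose and 3 fell with TSA, at a median of -1.50 (background 31.5% and 24.3%). Col1a1 read 237 and 233 FPKM against 668 and 717, and Pdgfrb read 5.46 and 4.53 against 18.1 and 19.2. Vim read 2095 and 2202 FPKM against 931 and 1085, and Thy1 read 126 and 176 against 54.8 and 58.3. The summed fibroblast markers were 2682 to 2821 FPKM with TSA and 2259 to 2484 in untreated libraries. The part of these markers in the TSA result was not tested. After 4OHT, 3 of 5 fibroblast markers fell and none rose at day 6 (median -1.09, background 12.3% higher and 12.7% lower). The counts were the same in 4OHT + siCtrl (median -1.56, background 7.26% and 6.51%). They were also the same in 4OHT + siDnmt1 against siDnmt1 (median -1.26, background 9.23% and 4.63%). In total RNA 1 of 4 rose and 2 fell at day 5 (median -0.15, background 19.2% and 18.5%). In long-term KO cells 2 of 4 rose and none fell against untreated (median 0.21, background 38.3% and 30.2%). With PD0325901, 2 of 5 rose and 2 fell against untreated (median -0.04, background 5.93% and 7.77%). With siDnmt1, 1 of 5 rose and 3 fell against siCtrl (median -0.86, background 3.11% and 4.97%). The part of these markers in the 4OHT, PD0325901 and siDnmt1 results was not tested either.

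The matrix ligands of these receptors moved in the same libraries. At 4OHT day 5, 4 of 26 tested ligand genes rose and 18 fell against untreated, with a median of -0.30 where all genes had 0.00 and the background was 19.2% higher and 18.5% lower. Postn (periostin, an RGD receptor ligand) fell by 3.17, Col3a1 fell by 1.47 and Col6a2 fell by 1.44 on the log2 scale, where both encode fibrillar or filament-forming collagen chains. At 4OHT day 6, 5 of 27 rose and 10 fell (background 12.3% and 12.7%), with Col3a1 at -3.76 and Lama4, a laminin chain, at -4.45 among those that fell and Tnc (tenascin C) at 1.38 among those that rose. In 4OHT + siCtrl, 1 of 28 rose and 14 fell (background 7.26% and 6.51%), and in 4OHT + siDnmt1 1 rose and 12 fell against siDnmt1 (background 9.23% and 4.63%). Of 26 ligand genes tested in long-term KO cells, 13 rose and 10 fell against untreated (background 38.3% and 30.2%), and Postn was 1.88 above untreated, Col4a1 1.35 and Lama4 1.57, while Spp1 (osteopontin, an RGD ligand) fell by 2.49. With PD0325901, 10 of 27 rose and 1 fell (background 5.93% and 7.77%): Postn rose by 5.12 and Tnc by 1.93, and Spp1 fell by 4.16. With TSA, 9 of 27 rose and 13 fell (background 31.5% and 24.3%), with Lama3 at 3.49 and Thbs2, a thrombospondin, at 2.75 against Col3a1 at -3.57 and Tgfbi at -3.08. With siDnmt1, 1 of 28 rose and 7 fell (background 3.11% and 4.97%), and Thbs2 was the 1 that rose, by 2.55. The median of the ligand list was 0.39 with PD0325901 against -0.07 for all genes, -0.66 with TSA against 0.10, -0.84 in 4OHT + siCtrl against 0.08 and 0.03 in long-term KO against 0.07. Each of these named values had an adjusted p under 0.05 (limma).

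Of 23 tested adaptors that couple integrins to actin, 14 rose and 3 fell in long-term KO cells (background 38.3% and 30.2%), and of 29 tested with PD0325901 10 rose and none fell (background 5.93% and 7.77%). Nedd9, a docking protein downstream of focal adhesion kinase, was 2.07 above untreated in long-term KO cells and fell by 1.75 with siDnmt1. With PD0325901 Pdlim7 rose by 1.57 and Tns1, a tensin that binds beta subunit tails, by 1.31. With TSA 12 of 29 rose and 6 fell (background 31.5% and 24.3%), with vinculin (Vcl) at 1.51 and Parva, a partner of integrin-linked kinase, at -2.08. At day 5, 9 of 23 rose and 5 fell (background 19.2% and 18.5%), and at 4OHT day 6, 7 of 29 rose and 2 fell (background 12.3% and 12.7%). Actin and serum response targets counted 6 rising and none falling of 13 with PD0325901 (background as above), among them the contractile genes Acta2 at 4.09, Cnn1 at 3.72 and Myl9 at 3.43. In 4OHT + siCtrl none of these 13 rose and 7 fell (background 7.26% and 6.51%). With PD0325901 the median was 0.43 for the adaptors and 0.92 for the actin and serum response targets, against -0.07 for all genes. As a check of the inhibitor, 8 of 9 MEK target genes fell with PD0325901 and none rose, at a median of -2.85 (background 7.77% lower). All 8 tested MEK targets also fell in long-term KO cells, which had no inhibitor, against untreated at a median of -1.45 (background 30.2% lower).

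**Figure D4:**
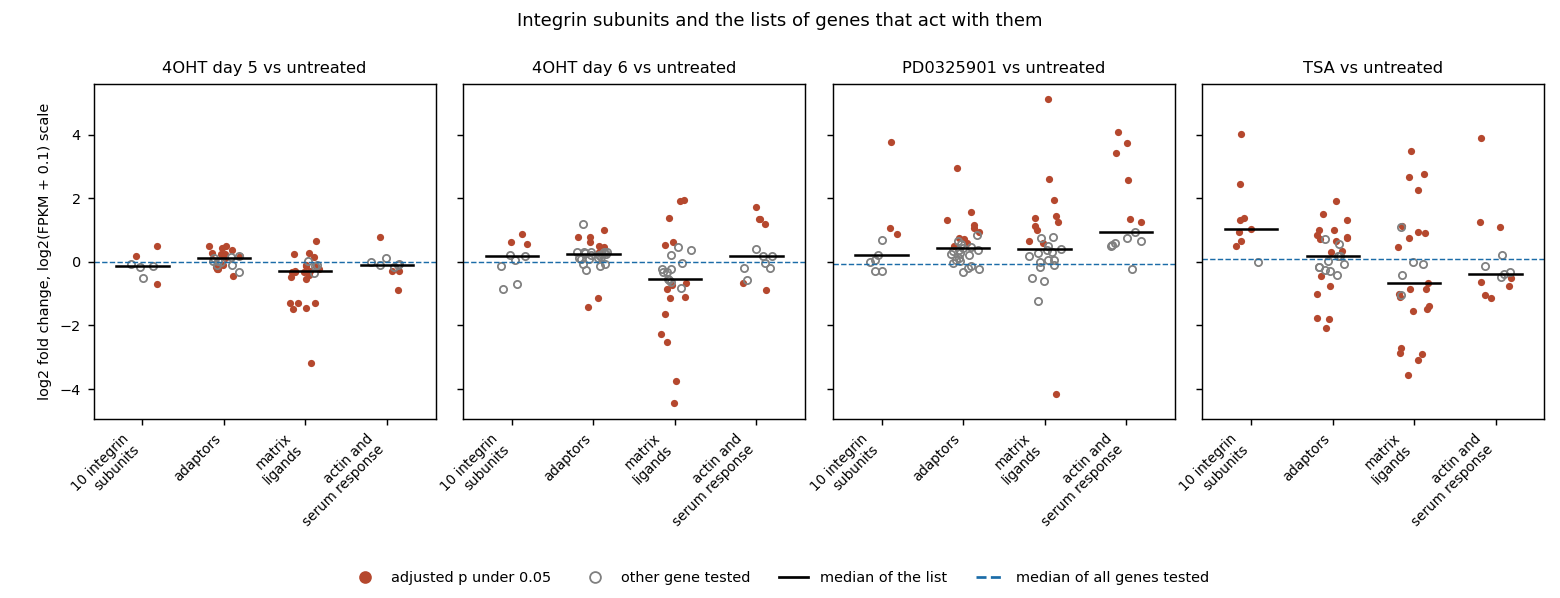
Log2 fold change against untreated (y axis) of the tested members of 4 lists (x axis: the 10 subunits, focal adhesion adaptors, matrix ligands, actin and serum response targets) in 4 panels, 4OHT day 5, 4OHT day 6, PD0325901 and TSA. Each dot is a gene, filled at an adjusted p under 0.05; the black line is the list's median and the dashed line the median of all genes. The matrix ligands lie mostly below 0 at day 5, with a median of -0.30, and the subunits mostly above 0 with TSA, with a median of 1.03, or 0.94 without Itga1 and Itgb3, which were tested only through TSA.

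Among the 16 other integrin subunits, 5 to 6 were tested in an experiment. Itgb7, the beta subunit of lymphocyte homing receptors, read 10.2 and 10.5 FPKM with siDnmt1, where siCtrl read 0.346 and 0.453. It rose by 4.40 ± 0.243 on the log2 scale (adjusted p = 4.90e-04, limma), by 3.38 in 4OHT + siCtrl (4.84 and 5.31 FPKM), and was highest in 4OHT + siDnmt1 with 17.0 and 26.7 FPKM. It also rose by 2.24 at 4OHT day 6, with 5.69 and 4.13 FPKM against 0.888 and 1.01 (adjusted p = 0.00194, limma). Itgb2, the beta subunit of leukocyte integrins, read 5.41 and 5.28 FPKM with siDnmt1 against 0.184 and 0.0921, and rose by 4.54 ± 0.628 (adjusted p = 0.0126, limma), but it fell by 2.83 in long-term KO cells. Itga7, a laminin receptor subunit best known from muscle, fell from 32.8 ± 0.577 to 9.72 ± 0.342 FPKM in long-term KO cells (SD, n = 3), by 1.74 on the log2 scale, and fell by 1.11 at 4OHT day 6. Itgb4, the partner of Itga6 in hemidesmosomes, was listed at 0 in every library but those of 4OHT + siDnmt1, at 1.26 and 1.17 FPKM, so no fold is given. In 4OHT + siDnmt1 Itgb2 read 7.97 and 4.10 FPKM, so that both leukocyte beta subunits were higher in each siDnmt1 library of the siRNA experiment than in its siCtrl counterpart. Of the 10 listed subunits none was called higher with siDnmt1, but Itga3 was under median-ratio scaling (adjusted p = 0.0450), and Itga3, Itga5, Itga6, Itgav and Itgb1 were when only siCtrl and siDnmt1 were fitted (adjusted p 0.00150 to 0.0284, limma).

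**Figure D5:**
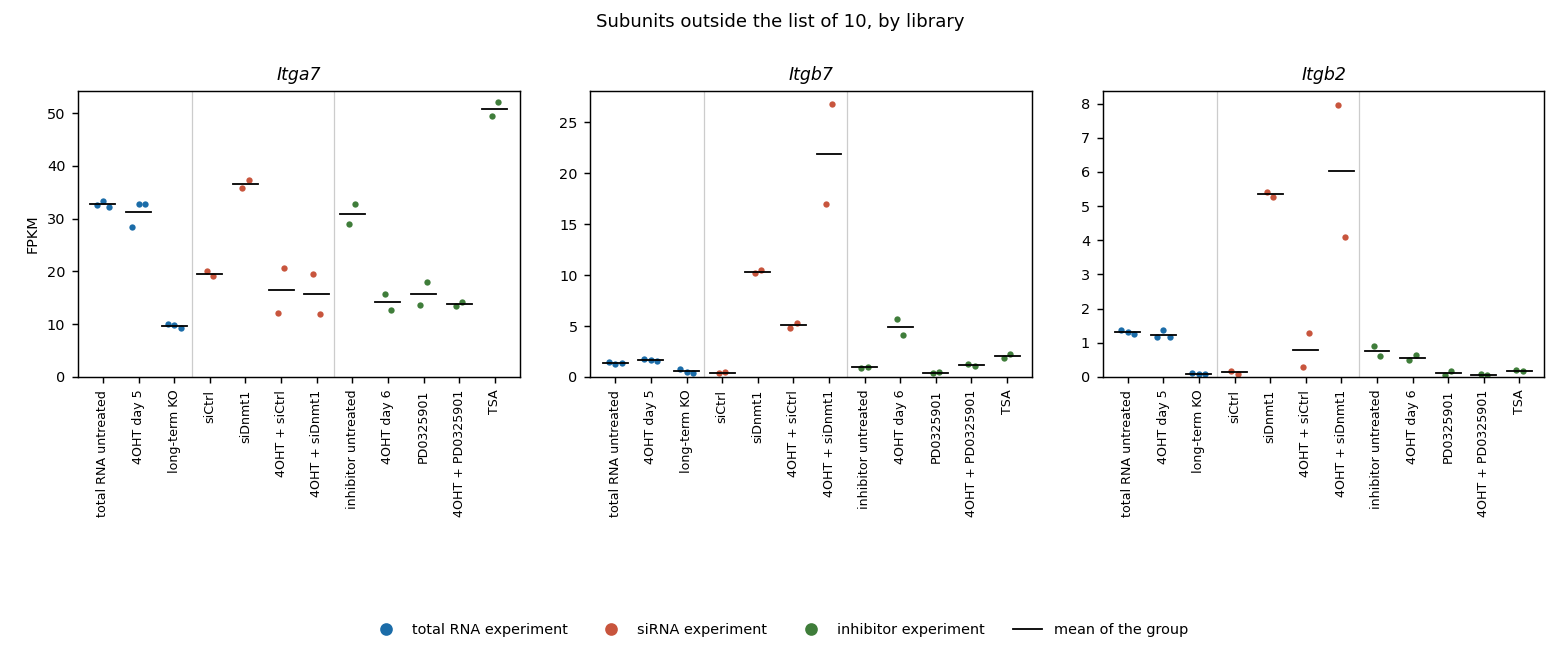
FPKM of Itga7, Itgb7 and Itgb2 (y axis) in every library by group (x axis), 1 panel a gene; each point is a library and each black line a group mean. Itgb7 reads 0.346 and 0.453 FPKM with siCtrl and 17.0 and 26.7 in 4OHT + siDnmt1, and Itga7 is lower in long-term KO than in untreated total RNA.

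Over the 27 libraries, with log2 levels centred within each experiment, the gene among 7927 that was most like that of a subunit by Pearson's r was Limk1, a kinase of actin turnover, for Itgb3 (0.955), Gpd2 for Itga3 (0.940), Pitrm1 for Itga2 (0.930), Pgrmc2 for Itgb5 (0.919), Fam199x for Itga6 (0.912), Palld, an actin bundler, for Itga11 (0.904), Sbk1 for Itga1 (0.957, over 26 libraries without the joined row), Tmsb4x, an actin-binding peptide, for Itgb1 (0.900), Myadm for Itga5 (0.877) and Fut8 for Itgav (0.847). Between the subunits themselves the highest r was 0.801 for Itga2 and Itgb3 and the lowest -0.602 for Itga3 and Itga11. These are descriptions over libraries that share groups, library types and depths.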

How the data were processed

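RNA-seq values of 27 libraries were used. Reads were placed on mm9 by the authors (TopHat2 2.0.12, 1 position per read). Each library was then quantified with Cufflinks, for which the paper names RefSeq genes, and the deposited values are FPKM with confidence intervals. The row bounds of total RNA libraries were not the same throughout, since long-term KO replicate 3 joined Itga1 and Pelo. The authors' tables of group comparisons (Cuffdiff fold changes and p-values of significant loci) were not used. Depth was computed from these values, and intervals cover the counting and assignment error of 1 library only.

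Total RNA libraries carry no gene names, so rows were matched by position to the loci of the named libraries (95% of the gene covered, overlap over union at least 80%). Rows of 1 symbol were summed, and Mir and Snor names left out. A separate limma 3.58.1 fit per experiment (R 4.3.3, trended variance, all groups, two-sided) was made on log2(FPKM + 0.1). Genes needed 1 FPKM in 3 libraries (total RNA) or 2 (the others), and p-values were adjusted by Benjamini-Hochberg over all genes tested. Library type and experiment cannot be told apart, so no levels were tested across experiments. Tables and plots used Python 3.11.15, numpy 2.4.6, pandas 2.3.3 and matplotlib 3.10.9. The fit was tested on simulated data.

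The subunits, lists and comparisons were chosen with earlier results of these data known. All 10 subunits were named, with up to 3 rising and 3 falling members of each list, past a fold of 2 and an adjusted p of 0.05, and genes with the highest Pearson's r to a subunit. Alternatives were pseudocount 1, no filter, median-ratio scaling, quantile normalization, the highest row per symbol, a fit of only the groups compared, replicate number as a block, and leaving out each library.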

Additional observations from a re-analysis of the deposited data

Results flagged for a closer look

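The libraries of 4OHT day 5, 4OHT + siCtrl and 4OHT day 6 were each set against the mean of their controls. For Itga5 and Itgb1, all such libraries lay on one side of it in one experiment and on the other side in another. The 4OHT + siDnmt1 and 4OHT + PD0325901 libraries were not part of this. For Itga5 the log2 change with 4OHT was -0.078 in the total RNA experiment (day 5), 0.14 in the siRNA experiment (day 6, with siCtrl) and 0.55 in the inhibitor experiment (day 6). For Itgb1 it was -0.16, -0.34 and 0.19 in the same order. The fitted values of Itga6, Itgav and Itgb5 also differed in sign between experiments, but with libraries on both sides of the control mean in at least 1 of them. The experiments differ in library type, day and transfection, and the differences between them were not tested. Of the 6 values of Itga5 and Itgb1, that of Itga5 in the inhibitor experiment passed the threshold in limma, and the call was lost when any 1 of its 4 libraries was left out.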

How the results depend on the processing

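Of 1317 values of single subunits under alternatives, 98 changed side of the threshold, 58 of them with 1 library left out, and 0 reversed. The number of subunits called, which here holds those tested only through 1 group, changed by over 1.5 times as follows. With siDnmt1 it was 1, and 2 under median-ratio scaling and 7 when only the groups compared were fitted, which uses fewer libraries for the spread: Itga3 was added upward under the former, and Itga3, Itga5, Itga6, Itgav and Itgb1 upward and Itgb5 downward under the latter. When only the groups compared were fitted, it was 0 for 4OHT + siCtrl, 1 for 4OHT + PD0325901 against 4OHT day 6 and 1 against PD0325901. Without a filter it was 1 for 4OHT + siDnmt1 against siDnmt1 and 1 for 4OHT + PD0325901 against PD0325901, and quantile normalization gave 1 for the former. The cause was not tested. Leaving out 1 library in turn gave 3 to 4 subunits at day 5, 7 to 7 in long-term KO against untreated, 6 to 7 against day 5, 0 to 0 with siDnmt1, 0 to 2 for 4OHT + siCtrl, 0 to 2 for 4OHT + siDnmt1 against 4OHT + siCtrl, 0 to 2 against siDnmt1, 0 to 2 at 4OHT day 6, 2 to 3 with PD0325901, 2 to 3 for 4OHT + PD0325901 against 4OHT day 6, 0 to 0 against PD0325901, 7 to 7 with TSA, and 0 to 1 in each interaction; where a group was left with 1 library, that library was assumed to vary like the other groups.

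Libraries with the same replicate number did not deviate together in every pair (r of deviations -0.04 to 0.12 in total RNA, -0.07 to 0.02 in siRNA and -0.03 to 0.26 in inhibitor libraries), so the number was not used to pair them. With the replicate number as a block, 4OHT + siDnmt1 against siDnmt1 had 1 call instead of 2, and it changed no other call. Among PD0325901, 4OHT day 6 and 4OHT + PD0325901, same-numbered libraries did deviate together (r 0.206 to 0.259, against -0.0261 to 0.0374 for pairs with untreated or TSA), which is a hint from the data and not from the labels. A fit of these 3 groups alone, chosen after seeing the data, called 1 subunit against 4OHT day 6 and 0 against PD0325901, and with the replicate number as a block 3 and 1. With that block Itga6 was lost in both comparisons (adjusted p = 0.0703 and 0.0811), and Itga3 passed downward against 4OHT day 6 (-0.71, adjusted p = 0.0443). Of the 270 subunit values, 33 had a deposited interval wider than 60% of the value on each side and 12 were at 0, most of them of Itga1 and Itga2, so that small differences of these 2 genes were not detectable at this depth.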
